A study of Homo sapiens with 6 samples.

Results

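The genes described here are antisense long non-coding RNA (lncRNA) genes, those whose symbol is the name of another gene followed by -AS and 1 digit. Of the 28491 gene rows of the count table, 933 carried such a symbol, and 438 of these had a mean of at least 10 counts over the 6 libraries and were taken as members, with EPB41L4A-AS1 left out by the rule. By gene type 431 of them are lncRNA genes and 7 pseudogenes, and 1 symbol, DNAJC9-AS1, stands on separate rows with different identifiers. For 420 of the members the gene named before -AS was also in the table, which gave 415 distinct partner genes. The other 18, among them HOXA-AS2, HOXB-AS3 and HOXD-AS2, are named for a gene cluster or for a symbol not found in the table. At the count minimum, BOLA3-AS1 and TSC22D1-AS1 lay just inside with a mean of 10 counts, and KIF1C-AS1, LIF-AS1, OBI1-AS1 and OXCT1-AS1 lay just outside with 9.83.

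Antisense lncRNAs are transcribed from the strand opposite to the gene they are named for, often from the same promoter region or from within that gene, and most are spliced and polyadenylated like mRNAs. Some act at their own locus on the partner gene, some act elsewhere in the nucleus or as partners of microRNAs, and for most no function is known. Many are kept at low levels, in part because the nuclear exosome degrades them soon after transcription. RBM47 is an RNA-binding protein with RNA recognition motifs that takes part in splicing, in the stability of mRNAs and in C-to-U editing as a cofactor of the deaminase APOBEC1.

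RNA-seq of polyadenylated RNA was made from HCT116 cells, an established human colorectal carcinoma line with epithelial features. The 3 NC libraries came from cells transfected with a control plasmid and the 3 RBM47-OE libraries from cells transfected with a plasmid carrying RBM47, and the labels give a harvest 48 h after transfection. The comparison asks which antisense genes differed in level between cells with forced RBM47 expression and control cells. The sources differ on the expression plasmid (a 3xFlag vector or a vector with a GFP reporter), the medium and the library kit, and none says whether the 3 libraries of a group came from separate cultures, so p-values measure the spread between these libraries. Overexpression was from a transiently transfected plasmid in 1 cell line, with the RBM47 of the cells still present in both groups.

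Each library held between 26792409 and 35477983 counts on genes, of which the antisense genes took 0.167% to 0.180%. RBM47 itself stood at 501, 797 and 552 counts in NC and at 41818, 38577 and 34858 in RBM47-OE (log2 fold change 5.90, SE 0.10, edgeR adjusted p = 1.69e-25). Of 7 epithelial markers, 6 had at least 1 FPKM in every library, VIL1 did not, and the summed level was 1888 to 2057 FPKM in NC and 1755 to 1983 in RBM47-OE. Over the same libraries the summed fibroblast, blood and endothelial markers reached at most 1.73, 0.35 and 0.16 FPKM. The fibroblast and blood sums rest on 2 of 4 markers each, as DCN, LUM, PTPRC and HBB were not listed. RBM47-OE replicate 1 stood apart from the other RBM47-OE libraries (chi-square per degree of freedom of their counts 18.2 and 19.8, against 9.07 between the other two and 3.40 to 4.82 among NC libraries). Across all 16233 tested genes with a GC content, the log2 fold change fell with exonic GC content (Spearman rho -0.63), and the calls were therefore also counted with an offset for each library's GC trend.

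By the GENCODE annotation of GRCh38, the member and its partner lay on opposite strands in all 419 pairs with both genes annotated. Exons of the antisense gene overlapped exons of its partner in 329 pairs (78.5%), 48 pairs overlapped without shared exonic bases, 38 were divergent without overlap (starts at most 5000 bases apart and facing away from each other), and 4 had another arrangement. The starts of the genes were a median of 4323 bases apart and within 1000 bases in 140 pairs. Where exons overlapped, a median of 11.8% of the antisense exonic bases lay opposite partner exons. Counting every gene on the other strand, 372 members had some exonic bases opposite an exon and 43 had at least 50% of them there. The labels and the methods name strand-preserving kits, but whether strand was used in counting is not given in the sources used here. In overlapping stretches, reads of the antisense gene and of its partner may therefore not have been told apart.

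Promoter windows show how close the starts of a pair can lie. The windows of 300 bases (250 before to 50 after the RefSeq start, build GRCh38.p14) are printed for 2 pairs whose genes were both higher in RBM47-OE and for 1 partner whose antisense gene starts 2 bases away by GENCODE and was lower with it, and the pairs were picked after their values were seen. They come from 6 pairs called in the same direction with GENCODE starts at most 600 bases apart. Windows of the ENO1, MNX1 and OTUD6B pairs and of ZNRD2-AS1 are not printed. WAC-AS1 has its window at chr10:28532305-28532604 (minus strand) and WAC at chr10:28532529-28532828 (plus strand), with starts 425 bases apart, so the windows share bases. THAP9-AS1 (chr4:82900867-82901166, minus strand) and THAP9 (chr4:82900485-82900784, plus strand) have RefSeq starts 181 bases apart. ZNRD2 lies at chr11:65570227-65570526 (plus strand). Capitals mark GGGCGG (a GC box core), CCAAT and TATAAA on either strand, so that CCGCCC and ATTGG are the same motifs read from the other strand.
WAC-AS1: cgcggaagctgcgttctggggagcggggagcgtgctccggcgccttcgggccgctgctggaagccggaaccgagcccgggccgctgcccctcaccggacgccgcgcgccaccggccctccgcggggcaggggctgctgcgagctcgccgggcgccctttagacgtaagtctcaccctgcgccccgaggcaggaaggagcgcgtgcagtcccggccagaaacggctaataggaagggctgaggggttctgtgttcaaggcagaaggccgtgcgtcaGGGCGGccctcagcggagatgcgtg
WAC: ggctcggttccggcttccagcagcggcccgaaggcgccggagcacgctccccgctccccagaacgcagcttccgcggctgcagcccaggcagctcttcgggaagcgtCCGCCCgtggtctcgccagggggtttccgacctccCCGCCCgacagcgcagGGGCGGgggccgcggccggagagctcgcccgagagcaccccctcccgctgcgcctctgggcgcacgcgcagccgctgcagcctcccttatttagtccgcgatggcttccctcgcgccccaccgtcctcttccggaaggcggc
THAP9-AS1: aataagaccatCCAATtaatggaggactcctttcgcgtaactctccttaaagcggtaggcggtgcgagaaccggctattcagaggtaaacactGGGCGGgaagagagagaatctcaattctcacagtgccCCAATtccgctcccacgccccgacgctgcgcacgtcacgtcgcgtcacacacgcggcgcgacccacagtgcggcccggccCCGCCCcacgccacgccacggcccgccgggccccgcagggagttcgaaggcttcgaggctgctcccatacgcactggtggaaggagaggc
THAP9: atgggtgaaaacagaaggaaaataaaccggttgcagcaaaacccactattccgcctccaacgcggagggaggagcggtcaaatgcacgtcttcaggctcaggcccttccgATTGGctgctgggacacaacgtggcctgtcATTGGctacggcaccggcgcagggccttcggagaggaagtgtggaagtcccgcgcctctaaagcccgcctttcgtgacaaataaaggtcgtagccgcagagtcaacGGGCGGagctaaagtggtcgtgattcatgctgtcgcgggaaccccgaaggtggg
ZNRD2: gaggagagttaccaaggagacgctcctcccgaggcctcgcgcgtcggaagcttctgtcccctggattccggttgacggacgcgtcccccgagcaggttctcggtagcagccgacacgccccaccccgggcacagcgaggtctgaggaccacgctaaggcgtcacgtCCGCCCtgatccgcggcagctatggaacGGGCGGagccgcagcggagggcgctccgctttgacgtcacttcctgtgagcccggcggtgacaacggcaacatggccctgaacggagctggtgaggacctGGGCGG
All 5 windows hold GGGCGG, both windows of the THAP9 pair also hold CCAAT, and TATAAA is in none of them. Among the 27305 RefSeq windows, 43.8% hold GGGCGG, 35.6% CCAAT and 12.1% TATAAA, and among the 326 members with a window the shares are 59.4%, 31.7% and 5.54%. The median GC content of the windows was 64.0% for the antisense genes and 58.0% for all genes. A match is a string of letters, not a shown binding site, and no match says only that these letters are absent from the window.

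Per length, the antisense genes were low. FPKM values (fragments scaled to transcript length and to mapped fragments) allow levels of different genes to be compared, and the median of the members' mean FPKM over the 6 libraries was 0.452, with a range from 0.018 to 133. Only 126 of 438 members had at least 1 FPKM and 6 had at least 10, while the partners had a median of 4.81 FPKM. The partner was higher per length in 347 of 419 pairs with both values above 0, and the median ratio of partner to antisense level was 11.3 (quartiles 2.30 and 30.5). The order was turned in 72 pairs, and in 28 pairs the antisense level was at least 10 times that of the partner. FGD5-AS1 is one of these, at a mean of 14.4 FPKM against 0.017 for FGD5, which encodes a GDP-GTP exchange factor known from endothelial cells.

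**Figure D1:**
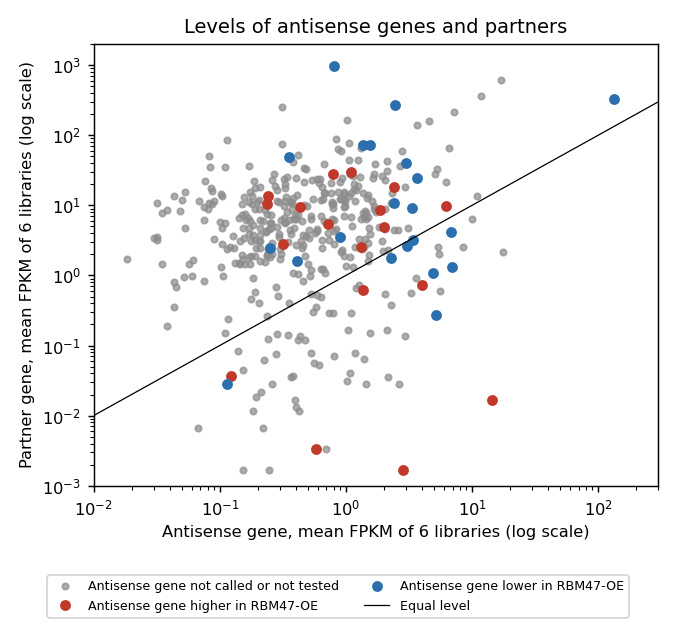
Mean FPKM over the 6 libraries of each antisense gene (x axis, log scale) against that of its partner (y axis, log scale), 1 point per pair, coloured by the call of the antisense gene, with a line of equal level. Most points lie above the line (347 of 419 pairs), and MIF-AS1 at 133 FPKM stands far to the right of the other antisense genes.

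MIF-AS1 had the highest level per length of the 438 members. It lies at chr22:23894426-23898930 (minus strand) beside the gene of the cytokine MIF, and 46.5% of its exonic bases lie opposite MIF exons. Whether reads of MIF-AS1 and of MIF were told apart by strand in that stretch is not known, so the level of MIF-AS1 may include reads of MIF. The next 4 by mean FPKM were UPK1A-AS1 (17.6), EZR-AS1 (17.0), FGD5-AS1 (14.4) and IER3-AS1 (11.9), partners of a uroplakin, of the membrane-cytoskeleton linker ezrin, of FGD5 and of an early-response gene. EZR and IER3 were themselves at 613 and 358 FPKM. Of IER3-AS1, 49.9% of the exonic bases lie opposite IER3 exons, and of EZR-AS1 6.63% opposite EZR exons.

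Few antisense genes were called as different between the groups, at a share close to that of lncRNA genes. Of 434 that passed the filter on low counts, 40 were called at an adjusted p under 0.05 by edgeR's quasi-likelihood test (9.22%), 18 higher and 22 lower in RBM47-OE. In bulk RNA, fewer cells that hold a transcript and less of it per cell cannot be told apart, and RNA without a poly(A) tail was not measured. Among all 16260 genes tested 35.9% were called, 19.1% higher and 16.9% lower, among protein-coding genes 42.0% and among lncRNA genes 9.01%. Under the pair of thresholds the study used (p under 0.01 before adjustment, fold change over 1.5), 5 antisense genes were higher and 5 lower, where 2.38% of all genes passed. The NC and RBM47-OE values did not overlap in 79 members (18.2%), 40 higher and 39 lower, against 46.5% of all genes (23.2% higher, 23.4% lower). The 4 members not tested, HOXC-AS2, POT1-AS1, RFX5-AS1 and ZNF22-AS1, had means of 10.2 to 10.7 counts.

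The errors of the antisense genes were larger than those of most genes. The median log2 fold change of the antisense genes was 0.00 (quartiles -0.24 and 0.26) and the median size of the change 0.24, the same to 2 decimals as over all genes tested. The median standard error was 0.27 for the antisense genes and 0.10 for all genes, and the median of the mean counts 43.0 and 543. Called shares rose with depth in both sets. With a mean of 10 to 29 counts 4 of 152 antisense genes were called (2.63%, against 3.53% of all genes at that depth), with 30 to 99 counts 9 of 174 (5.17%, against 8.37%), with 100 to 299 counts 16 of 82 (19.5%, against 22.1%), with 300 to 999 counts 8 of 21 (38.1%, against 42.4%) and with at least 1000 counts 3 of 5 (60.0%, against 58.6%). A further 27 members had group values over 1.5-fold apart without being called, all with a mean of at most 34.8 counts.

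**Figure D2:**
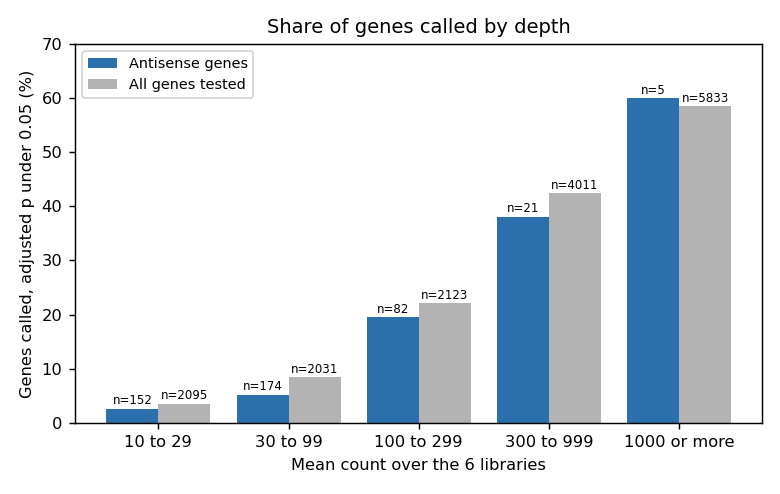
Share of genes called at an adjusted p under 0.05 (y axis, percent) by mean count over the 6 libraries (x axis), for the antisense genes and for all genes tested, with the number of genes above each bar. Both sets climb, from 2.63% and 3.53% at 10 to 29 counts to 60.0% and 58.6% at 1000 counts or more.

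The 22 antisense genes lower in RBM47-OE included MIF-AS1, PXN-AS1, PRMT5-AS1 and CDKN2B-AS1. Values below are counts scaled to library size (CPM, with TMM factors), in the order of replicates 1 to 3, and differences are log2 fold changes of RBM47-OE over NC. MIF-AS1 had 271, 258 and 248 CPM in NC and 219, 180.4 and 163 CPM in RBM47-OE (log2 fold change -0.46, SE 0.08, edgeR adjusted p = 0.000230). Every RBM47-OE library lay below every NC library, and MIF-AS1 was called without any 1 library (edgeR adjusted p from 7.10e-07 to 0.00392). PXN-AS1, antisense to the focal adhesion adaptor paxillin, had 19.5, 16.1 and 20.8 CPM in NC and 13.7, 12.9 and 12.3 CPM in RBM47-OE (log2 fold change -0.53, SE 0.11, edgeR adjusted p = 0.000661). Its groups did not overlap, and 37.8% of its exonic bases lie opposite PXN exons. PRMT5-AS1, antisense to an arginine methyltransferase of histones and splicing factors, had 7.65, 6.10 and 6.57 CPM in NC and 4.94, 4.23 and 4.52 CPM in RBM47-OE (log2 fold change -0.56, SE 0.15, edgeR adjusted p = 0.00380). It was lower in all 3 RBM47-OE libraries, and 28.9% of its exonic bases lie opposite PRMT5 exons.

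CDKN2B-AS1, also known as ANRIL, runs through the locus of the cyclin-dependent kinase inhibitors CDKN2A and CDKN2B at chr9:21994139-22128103 (plus strand). It had 6.51, 6.88 and 7.20 CPM in NC and 4.79, 4.36 and 4.86 CPM in RBM47-OE (log2 fold change -0.56, SE 0.14, edgeR adjusted p = 0.00303). The groups were clear of each other, and its exonic GC content of 39.7% was the lowest of the genes that fell. With the GC offset its log2 fold change was -0.85 (edgeR adjusted p = 0.000326). On FPKM values CDKN2B-AS1 was not called. The difference was -0.09 on log2(FPKM + 1) (limma adjusted p = 0.268) and -0.32 on log2(FPKM + 0.1) (limma adjusted p = 0.280). CDKN2B did not pass the test (log2 fold change 0.05, SE 0.11, edgeR adjusted p = 0.776). The calls of MIF-AS1, PXN-AS1, PRMT5-AS1 and CDKN2B-AS1 held in each of the 6 fits that left out 1 library, as did 1 other of the 22, which is not reported by name.

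The largest decreases were in genes of few counts. ENO1-AS1, at chr1:8878835-8879894 (plus strand) with 27.6% of its exonic bases opposite exons of the glycolytic enzyme gene ENO1, had 0.457, 0.434 and 0.904 CPM in NC and 0.242, 0.125 and 0.345 CPM in RBM47-OE (log2 fold change -1.33, SE 0.48, edgeR adjusted p = 0.0331). Its mean was 12.5 counts, and it was not called without NC replicate 3, RBM47-OE replicate 1 or RBM47-OE replicate 2 (edgeR adjusted p from 0.0607 to 0.252). ENO1-AS1 was called in 9 of the 18 alternative fits, and DESeq2 gave it no adjusted p. ZNRD2-AS1 starts 2 bases from ZNRD2 on the other strand with no shared exonic bases, and had 0.723, 1.07 and 1.36 CPM in NC and 0.697, 0.498 and 0.345 CPM in RBM47-OE (log2 fold change -1.02, SE 0.37, edgeR adjusted p = 0.0309). RBM47-OE replicate 1 lay close to the lowest NC library, and the call was lost without NC replicate 2, NC replicate 3, RBM47-OE replicate 2 or RBM47-OE replicate 3 (edgeR adjusted p from 0.0888 to 0.171). ERICH6-AS1 had 1.10, 0.839 and 0.973 CPM in NC and 0.606, 0.436 and 0.414 CPM in RBM47-OE (log2 fold change -0.98, SE 0.35, edgeR adjusted p = 0.0319). It was lower in every RBM47-OE library than in any NC library, but was not called without NC replicate 1, NC replicate 2, NC replicate 3, RBM47-OE replicate 2 or RBM47-OE replicate 3 (edgeR adjusted p from 0.0590 to 0.118). HOXD-AS2, within the HOXD cluster of developmental transcription factor genes, had 2.36, 2.40 and 1.98 CPM in NC and 0.758, 1.28 and 1.83 CPM in RBM47-OE (log2 fold change -0.82, SE 0.27, edgeR adjusted p = 0.0192). RBM47-OE replicate 1 was lowest and replicate 3 near the NC range, and significance was lost without NC replicate 1, NC replicate 2, RBM47-OE replicate 1 or RBM47-OE replicate 2 (edgeR adjusted p from 0.0547 to 0.0958).

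MZF1-AS1, ZNF232-AS1 and ZBTB11-AS1 were also lower. MZF1-AS1, opposite a myeloid transcription factor gene, fell from 2.21 ± 0.390 to 1.37 ± 0.139 CPM (mean ± SD, n = 3; log2 fold change -0.70, SE 0.24, edgeR adjusted p = 0.0238) and was not called without NC replicate 2, NC replicate 3, RBM47-OE replicate 1 or RBM47-OE replicate 2 (edgeR adjusted p from 0.0536 to 0.132). ZNF232-AS1 had 9.93, 8.07 and 6.81 CPM in NC and 4.82, 6.82 and 5.07 CPM in RBM47-OE (log2 fold change -0.57, SE 0.16, edgeR adjusted p = 0.00591). Here RBM47-OE replicate 2 reached the lowest NC library, and ZNF232-AS1 was lost without NC replicate 1 (edgeR adjusted p = 0.0618). ZBTB11-AS1 had 3.77, 3.18 and 2.82 CPM in NC and 2.12, 2.55 and 2.21 CPM in RBM47-OE (log2 fold change -0.50, SE 0.19, edgeR adjusted p = 0.0457), without overlap of the groups. Its adjusted p stood close to the threshold and was above it without NC replicate 1, NC replicate 2, RBM47-OE replicate 1, RBM47-OE replicate 2 or RBM47-OE replicate 3 (edgeR adjusted p from 0.0508 to 0.208).

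ILRUN-AS1, PRR34-AS1, FAM222A-AS1 and EML2-AS1 fell by 0.51 to 0.64 on the log2 scale. ILRUN-AS1 had 4.34, 4.63 and 2.85 CPM in NC and 2.15, 2.55 and 2.90 CPM in RBM47-OE (log2 fold change -0.64, SE 0.20, edgeR adjusted p = 0.0135), with NC replicate 3 inside the RBM47-OE range, and was not called without NC replicate 1 or NC replicate 2 (edgeR adjusted p from 0.0581 to 0.108). PRR34-AS1 had 8.52, 8.27 and 6.43 CPM in NC and 5.33, 3.86 and 6.52 CPM in RBM47-OE (log2 fold change -0.57, SE 0.16, edgeR adjusted p = 0.00804), and RBM47-OE replicate 3 overlapped NC. That call was lost without RBM47-OE replicate 2 (edgeR adjusted p = 0.0800). FAM222A-AS1 had 3.69, 3.70 and 2.64 CPM in NC and 2.48, 2.09 and 2.03 CPM in RBM47-OE (log2 fold change -0.60, SE 0.20, edgeR adjusted p = 0.0198), with separate groups, and missed the threshold without NC replicate 1, NC replicate 2, RBM47-OE replicate 2 or RBM47-OE replicate 3 (edgeR adjusted p from 0.0667 to 0.106). EML2-AS1, 95.0% of whose exonic bases lie opposite exons of the microtubule-binding protein gene EML2, had 3.54, 4.34 and 3.93 CPM in NC and 2.36, 2.83 and 3.14 CPM in RBM47-OE (log2 fold change -0.51, SE 0.18, edgeR adjusted p = 0.0284). Its groups were separate, and it was not called without NC replicate 2, NC replicate 3, RBM47-OE replicate 1 or RBM47-OE replicate 2 (edgeR adjusted p from 0.0604 to 0.139). ELFN1-AS1, an lncRNA described in colorectal tumours, had 5.86, 6.13 and 6.71 CPM in NC and 4.61, 4.11 and 5.35 CPM in RBM47-OE (log2 fold change -0.41, SE 0.15, edgeR adjusted p = 0.0297), with all RBM47-OE libraries below NC, and did not pass without NC replicate 2, NC replicate 3 or RBM47-OE replicate 2 (edgeR adjusted p from 0.0711 to 0.128). The other 5 called genes, MNX1-AS1, AGAP2-AS1, SLC25A5-AS1, VPS9D1-AS1 and RUSC1-AS1, fell by 0.28 to 0.42 on the log2 scale, and each was lost without at least 1 library.

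Among the 18 antisense genes higher in RBM47-OE, PPP1R26-AS1, ZNF503-AS1, PSMA3-AS1, PAXIP1-AS2 and OIP5-AS1 were called in each of the 6 fits that left out 1 library. PPP1R26-AS1, named for a regulatory subunit of a protein phosphatase, lies in the region of that gene at chr9:135462727-135480777 (minus strand) without exonic overlap. It had 0.761, 0.781 and 0.695 CPM in NC and 1.64, 1.46 and 1.28 CPM in RBM47-OE (log2 fold change 0.97, SE 0.29, edgeR adjusted p = 0.0115). The lowest RBM47-OE library was well above the highest NC library, and the partner PPP1R26 did not pass the test (log2 fold change -0.16, SE 0.07, edgeR adjusted p = 0.0941). ZNF503-AS1 had 3.88, 3.64 and 3.96 CPM in NC and 6.12, 4.89 and 5.59 CPM in RBM47-OE (log2 fold change 0.53, SE 0.15, edgeR adjusted p = 0.00870), and its partner, a zinc finger gene starting 158196 bases away, was not called (log2 fold change -0.04, SE 0.08, edgeR adjusted p = 0.707). PSMA3-AS1, named for an alpha subunit of the proteasome, had 7.99, 6.65 and 7.79 CPM in NC and 10.2, 11.4 and 11.3 CPM in RBM47-OE (log2 fold change 0.56, SE 0.12, edgeR adjusted p = 0.00109). All RBM47-OE libraries were above NC, and no exonic base of PSMA3-AS1 lies opposite PSMA3 exons. PAXIP1-AS2 had 2.74, 2.49 and 1.95 CPM in NC and 3.06, 4.64 and 4.24 CPM in RBM47-OE (log2 fold change 0.73, SE 0.20, edgeR adjusted p = 0.00532), with RBM47-OE replicate 1 nearest to NC and no overlap.

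OIP5-AS1, a conserved and abundant lncRNA also called Cyrano that is known to promote the decay of a microRNA, had 81.3, 81.9 and 76.9 CPM in NC and 89.0, 96.8 and 105 CPM in RBM47-OE (log2 fold change 0.28, SE 0.07, edgeR adjusted p = 0.00518). FGD5-AS1 had 75.7, 79.3 and 77.4 CPM in NC and 85.0, 91.2 and 95.5 CPM in RBM47-OE (log2 fold change 0.22, SE 0.07, edgeR adjusted p = 0.0159). Both were higher in every RBM47-OE library than in any NC library, by 1.21-fold and 1.17-fold. With means of 2714 and 2576 counts they were among the 5 deepest members, and FGD5-AS1 was not called without NC replicate 1, NC replicate 2, NC replicate 3 or RBM47-OE replicate 3 (edgeR adjusted p from 0.0577 to 0.0908). With the GC offset the log2 fold change of OIP5-AS1 was 0.08 (edgeR adjusted p = 0.363) and that of FGD5-AS1 0.18 (edgeR adjusted p = 0.0331). OIP5, which encodes a centromere protein loading factor, did not pass the test (log2 fold change 0.04, SE 0.11, edgeR adjusted p = 0.818).

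A2M-AS1 and CERS6-AS1 had the largest increases. A2M-AS1, named for the protease inhibitor A2M of blood plasma, had 0.228, 0.202 and 0.243 CPM in NC and 0.636, 0.436 and 0.655 CPM in RBM47-OE (log2 fold change 1.35, SE 0.45, edgeR adjusted p = 0.0216). It was higher in each RBM47-OE library than in any NC library, at a mean of 12.3 counts, and was not called without NC replicate 1, NC replicate 2, NC replicate 3 or RBM47-OE replicate 3 (edgeR adjusted p from 0.0590 to 0.0961). A2M-AS1 was called in 7 of the 18 alternative fits, and DESeq2 gave it no adjusted p. CERS6-AS1, at chr2:168771951-168786961 (minus strand) with 69.6% of its exonic bases opposite exons of the ceramide synthase gene CERS6, had 0.951, 0.434 and 0.730 CPM in NC and 1.39, 2.09 and 1.31 CPM in RBM47-OE (log2 fold change 1.21, SE 0.32, edgeR adjusted p = 0.00487). The groups were separate with RBM47-OE replicate 2 highest, and the call was lost without RBM47-OE replicate 2 (edgeR adjusted p = 0.0550). SMARCA5-AS1, opposite a chromatin remodelling ATPase gene, had 1.90, 2.43 and 1.60 CPM in NC and 3.24, 3.64 and 2.48 CPM in RBM47-OE (log2 fold change 0.65, SE 0.21, edgeR adjusted p = 0.0188). NC replicate 2 came close to RBM47-OE replicate 3, and the gene was not called without NC replicate 1, NC replicate 3 or RBM47-OE replicate 2 (edgeR adjusted p from 0.0566 to 0.108).

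THAP9-AS1 and WAC-AS1, whose promoter windows are printed above, both rose. THAP9-AS1 had 16.9, 15.04 and 17.2 CPM in NC and 18.1, 29.6 and 22.0 CPM in RBM47-OE (log2 fold change 0.50, SE 0.13, edgeR adjusted p = 0.00311). RBM47-OE replicate 2 was far above the others and replicate 1 only a little above NC, and THAP9-AS1 was not called without RBM47-OE replicate 2 (edgeR adjusted p = 0.0663). Its partner THAP9, derived from a transposase, had 2.51, 3.18 and 2.54 CPM in NC and 4.27, 5.04 and 3.90 CPM in RBM47-OE (log2 fold change 0.68, SE 0.18, edgeR adjusted p = 0.00453). WAC-AS1 had 6.01, 5.24 and 6.81 CPM in NC and 7.55, 8.97 and 8.07 CPM in RBM47-OE (log2 fold change 0.45, SE 0.14, edgeR adjusted p = 0.0122), with no overlap, and was not called without NC replicate 2 or RBM47-OE replicate 2 (edgeR adjusted p from 0.0688 to 0.0985). WAC, an adaptor protein of histone ubiquitination, had 108, 101 and 102 CPM in NC and 129, 164 and 139 CPM in RBM47-OE (log2 fold change 0.47, SE 0.08, edgeR adjusted p = 0.000128), again with all RBM47-OE libraries above NC.

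The other named increases were between 0.31 and 0.44 on the log2 scale. TRAM2-AS1 had 3.73, 3.64 and 3.27 CPM in NC and 4.30, 4.67 and 5.52 CPM in RBM47-OE (log2 fold change 0.44, SE 0.16, edgeR adjusted p = 0.0357) and missed the threshold without NC replicate 1, NC replicate 2, NC replicate 3, RBM47-OE replicate 2 or RBM47-OE replicate 3 (edgeR adjusted p from 0.0607 to 0.164). KTN1-AS1, opposite the gene of the kinesin-binding protein kinectin, had 5.63, 5.35 and 5.94 CPM in NC and 6.94, 8.62 and 7.07 CPM in RBM47-OE (log2 fold change 0.42, SE 0.14, edgeR adjusted p = 0.0183) and was not called without NC replicate 1, NC replicate 2 or RBM47-OE replicate 2 (edgeR adjusted p from 0.0512 to 0.116). In both the groups were separate. CKMT2-AS1 had 4.60, 5.00 and 4.07 CPM in NC and 6.36, 4.76 and 7.21 CPM in RBM47-OE (log2 fold change 0.42, SE 0.16, edgeR adjusted p = 0.0441), where RBM47-OE replicate 2 lay inside the NC range, and it did not pass without NC replicate 1, NC replicate 2, NC replicate 3, RBM47-OE replicate 1 or RBM47-OE replicate 3 (edgeR adjusted p from 0.0530 to 0.232). ZFPM2-AS1 had 7.84, 7.69 and 6.40 CPM in NC and 8.12, 9.43 and 11.7 CPM in RBM47-OE (log2 fold change 0.41, SE 0.14, edgeR adjusted p = 0.0218) and was lost without NC replicate 3 or RBM47-OE replicate 3 (edgeR adjusted p from 0.123 to 0.175). Its partner, a cofactor of GATA transcription factors, was almost undetected at 0.0017 FPKM, and so was CKMT2, a mitochondrial creatine kinase of muscle, at 0.0033 FPKM. ZNF407-AS1 had 7.002, 7.14 and 7.75 CPM in NC and 8.06, 11.8 and 8.35 CPM in RBM47-OE (log2 fold change 0.37, SE 0.14, edgeR adjusted p = 0.0436), and lost its call without NC replicate 1, NC replicate 2, NC replicate 3 or RBM47-OE replicate 2 (edgeR adjusted p from 0.0621 to 0.383). OTUD6B-AS1, named for a deubiquitinase, had 21.8, 19.2 and 18.8 CPM in NC and 22.8, 25.7 and 25.5 CPM in RBM47-OE (log2 fold change 0.31, SE 0.10, edgeR adjusted p = 0.0130), with separate groups. It was not called without NC replicate 2, NC replicate 3 or RBM47-OE replicate 2 (edgeR adjusted p from 0.0568 to 0.0850), and its direction turned with the GC offset (log2 fold change -0.05, edgeR adjusted p = 0.728). GABPB1-AS1 was the remaining called gene (log2 fold change 0.29), and it was lost without NC replicate 2.

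**Figure D3:**
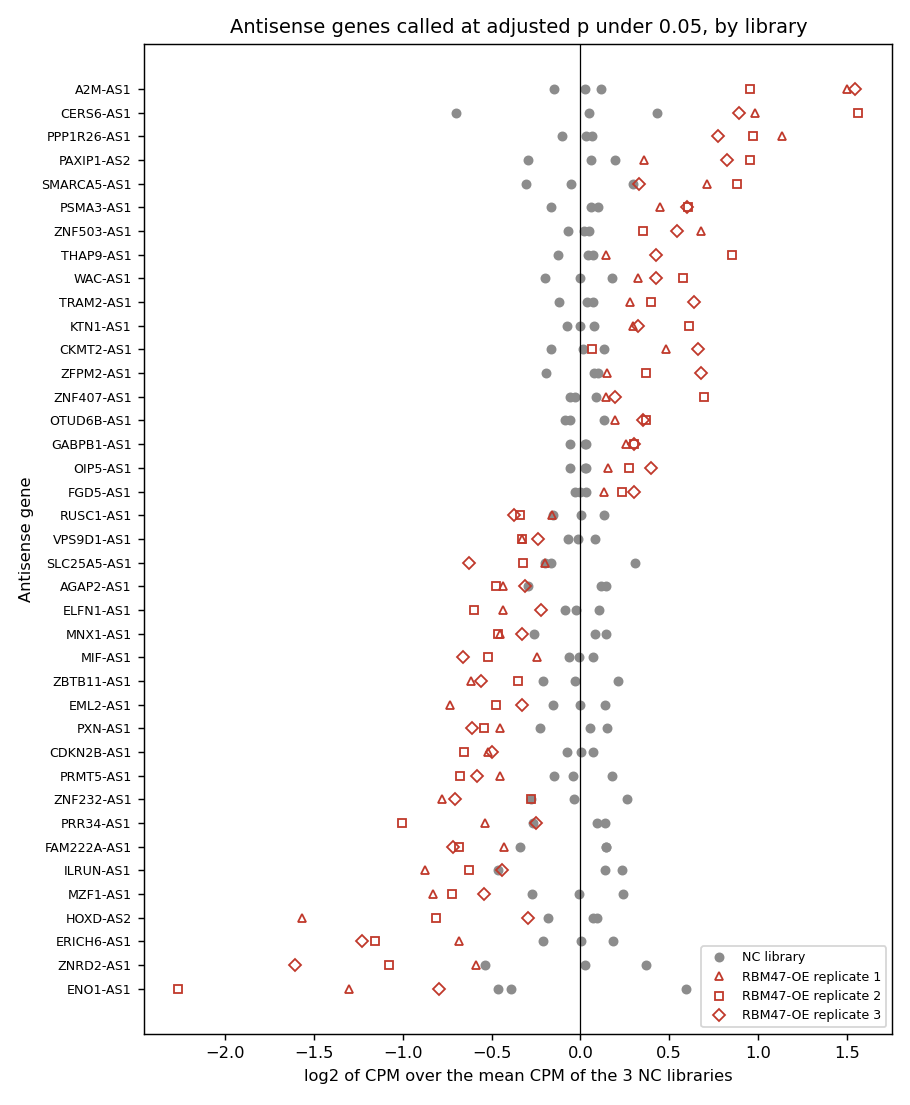
Level of each called antisense gene in every library as log2 of its CPM over the mean CPM of the 3 NC libraries (x axis), 1 line per gene (1 of the called genes is not drawn), with grey points for NC libraries and open symbols for RBM47-OE replicates 1 to 3. The groups do not overlap in 35 of the 40 called genes and overlap in CKMT2-AS1, SLC25A5-AS1, ZNF232-AS1, PRR34-AS1 and ILRUN-AS1. The called genes were picked by a test for a difference between the groups. Groups did not overlap in 18.2% of the members tested and in 46.5% of all genes.

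Over the 40 called genes the RBM47-OE libraries did not move equally. The median difference from the NC mean of the 18 higher genes was 0.31, 0.59 and 0.48 on the log2 CPM scale in RBM47-OE replicates 1, 2 and 3, while that of the 22 lower genes was -0.49, -0.56 and -0.50. Of the 40 calls, 10 held in all 6 fits without 1 library, 5 in each direction, and 30 were lost in at least 1 of them. Without RBM47-OE replicate 2 the members called numbered 20, and without NC replicates 1, 2 and 3 26, 21 and 24. Without RBM47-OE replicate 1 they numbered 49, and without replicate 3 33.

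Of 12 antisense lncRNAs listed for a known role, 5 were called, namely OIP5-AS1, FGD5-AS1, PSMA3-AS1, CDKN2B-AS1 and ELFN1-AS1, and 7 were not. Of all members tested 9.22% were called, and of all genes 35.9%. OIP5-AS1 and FGD5-AS1 had means of at least 1000 counts, a depth at which 60.0% of members and 58.6% of all genes were called. The list was written with results of these data known. ZEB1-AS1, named for a transcription factor of the epithelial-mesenchymal transition, had 2.63, 3.67 and 3.41 CPM in NC and 3.88, 4.02 and 2.97 CPM in RBM47-OE (log2 fold change 0.16, SE 0.18, edgeR adjusted p = 0.545). TMPO-AS1, named for the gene of a lamina-associated protein, had 8.94, 7.14 and 7.23 CPM in NC and 8.18, 7.29 and 7.38 CPM in RBM47-OE (log2 fold change -0.02, SE 0.13, edgeR adjusted p = 0.910). The groups overlapped in both. DDX11-AS1, also known as CONCR and named for a DNA helicase of sister chromatid cohesion, had 1.22, 1.53 and 0.834 CPM in NC and 0.818, 1.28 and 1.10 CPM in RBM47-OE (log2 fold change -0.18, SE 0.30, edgeR adjusted p = 0.690). FOXD2-AS1, MCM3AP-AS1, HOXA-AS2 and TTN-AS1 had log2 fold changes of 0.06, 0.18, 0.17 and 0.12 with standard errors of 0.21, 0.21, 0.26 and 0.19, and overlapping groups in each. Of the 5 highest per length, UPK1A-AS1 (log2 fold change 0.00, SE 0.10, edgeR adjusted p = 0.992), EZR-AS1 (log2 fold change -0.27, SE 0.13, edgeR adjusted p = 0.115) and IER3-AS1 (log2 fold change -0.32, SE 0.15, edgeR adjusted p = 0.113) were not called, though IER3-AS1 passed without RBM47-OE replicate 2 (edgeR adjusted p = 0.0178).

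The changes of the antisense genes moved with their GC content, as did those of all genes. Over 433 members the Spearman rho between exonic GC content and log2 fold change was -0.29, and over 387 partners it was -0.76 (genes of the same libraries, a description). Over all 16233 genes tested with a GC content the rho was -0.63, so the trend was not particular to the members. The 18 genes that rose had a median GC content of 42.9%, the 22 that fell 53.9% and those not called 49.5%. Of 128 members under 45% GC, 12 were higher and 2 lower, with a median log2 fold change of 0.16. Of 112 members with at least 55% GC, 1 was higher, SMARCA5-AS1 at 65.0%, and 10 were lower, with a median of -0.11. CDKN2B-AS1 and ERICH6-AS1 were the 2 that fell with a GC content under 45%.

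With an offset for each library's GC trend, 15 antisense genes were called (3.46%), 5 higher and 10 lower, where 14.5% of all genes were called, 6.0% higher and 8.46% lower. Of these, 12 were among the 40 called without the offset. Those higher under both were PPP1R26-AS1, SMARCA5-AS1, ZNF503-AS1, WAC-AS1 and FGD5-AS1, and those lower under both included ERICH6-AS1, ZNF232-AS1, PRMT5-AS1, CDKN2B-AS1, PXN-AS1 and MIF-AS1. The 3 called with the offset alone were EMC3-AS1, NUTM2B-AS1 and UXT-AS1, all lower. These 3 were named after their values were seen. The other 28 of the 40 calls were lost with the offset (edgeR adjusted p from 0.0502 to 0.728), and 27 of these kept their sign, with OTUD6B-AS1 the exception. Among the lost calls of higher genes, PSMA3-AS1 had a log2 fold change of 0.30 with the offset (edgeR adjusted p = 0.0693), PAXIP1-AS2 0.45 (edgeR adjusted p = 0.112), THAP9-AS1 0.24 (edgeR adjusted p = 0.147), CERS6-AS1 0.94 (edgeR adjusted p = 0.0502) and A2M-AS1 1.17 (edgeR adjusted p = 0.0830). The partner THAP9 was not called with it either (log2 fold change 0.35, edgeR adjusted p = 0.198). Calls of lower genes were lost too. With the offset ENO1-AS1 stood at -1.29 (edgeR adjusted p = 0.0758), ZNRD2-AS1 at -0.86 (edgeR adjusted p = 0.119) and HOXD-AS2 at -0.70 (edgeR adjusted p = 0.0908). PRR34-AS1 stood at -0.39 (edgeR adjusted p = 0.120), EML2-AS1 at -0.29 (edgeR adjusted p = 0.312) and ELFN1-AS1 at -0.21 (edgeR adjusted p = 0.378). MZF1-AS1, ILRUN-AS1 and FAM222A-AS1 were also lost. The cause of the GC trend was not tested.

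**Figure D4:**
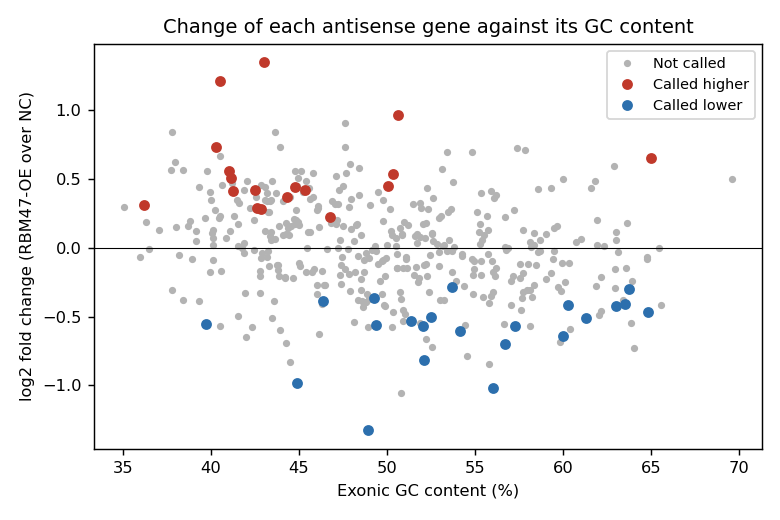
Log2 fold change of each tested antisense gene (y axis, RBM47-OE over NC) against its exonic GC content in percent (x axis), coloured by call. Called higher genes gather on the left, with a median GC content of 42.9%, and called lower genes further right, with a median of 53.9%.

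The partners were called more often than the antisense genes, at a higher depth. Of 387 partners tested, 99 rose and 81 fell in RBM47-OE (46.5%, against 35.9% of all genes and 42.0% of protein-coding genes), the median log2 fold change was 0.03 and the median of the mean counts 1241. Under the GC offset 35 partners were higher and 28 lower (16.3%, against 14.5% of all genes). In 389 pairs with both genes tested, the partner was called and the antisense gene not in 162 pairs, both were called in 18, and the antisense gene alone in 16. For 6 further called antisense genes the partner was not tested or not in the table. Antisense gene and partner had log2 fold changes of the same sign in 256 of 389 pairs (65.8%), and the Spearman rho between them was 0.34 (Pearson r 0.31). Both genes of a pair were read from the same 6 libraries and may share reads, and their GC contents went together (rho 0.60). With the GC offset the rho was 0.11 and the signs were the same in 206 pairs (53.0%).

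By arrangement, the rho was 0.39 in 304 pairs with exonic overlap, 0.36 in 37 divergent pairs and -0.02 in 43 pairs that overlapped without shared exonic bases. With the GC offset these were 0.10, 0.33 and 0.08. Within the pairs with exonic overlap the rho was 0.29 where under 5% of the antisense exonic bases were shared, 0.36 at 5% to 20% and 0.43 at 20% or more, and with the GC offset these were 0.06, 0.14 and 0.11. For antisense genes with a mean of at least 100 counts the rho was 0.55 over 100 pairs, and 0.26 with the GC offset.

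**Figure D5:**
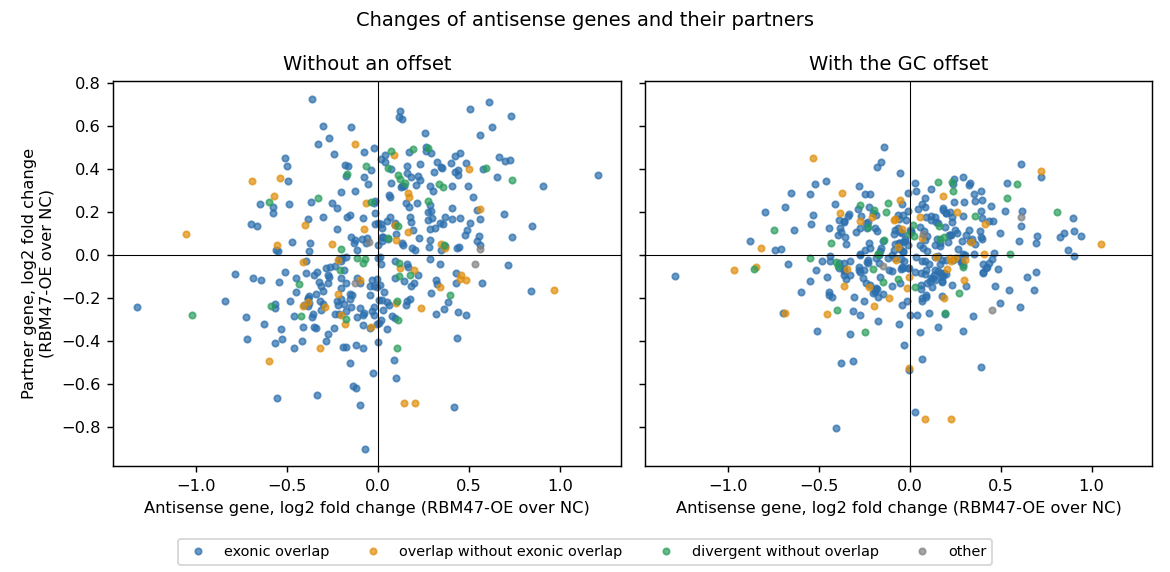
Log2 fold change of the partner (y axis) against that of the antisense gene (x axis), 1 point per pair, coloured by arrangement, without an offset (left) and with the GC offset (right). The cloud tilts upwards on the left (rho 0.34 over 389 pairs) and less on the right (rho 0.11).

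Of the 18 pairs with both genes called, 6 were higher together (CERS6, KTN1, OTUD6B, SMARCA5, THAP9 and WAC), 11 were lower together (among them AGAP2, ENO1, FAM222A, MIF, MNX1, PRMT5, PXN, RUSC1, SLC25A5 and ZNRD2) and 1 moved in opposite directions. MIF had 305, 319 and 315 CPM in NC and 269, 212 and 215 CPM in RBM47-OE (log2 fold change -0.43, SE 0.08, edgeR adjusted p = 0.000303), close to the change of MIF-AS1, with which it may share reads. PRMT5 had 305, 309.8 and 297 CPM in NC and 239, 212 and 235 CPM in RBM47-OE (log2 fold change -0.41, SE 0.07, edgeR adjusted p = 0.000157) and PXN 382, 376 and 387 CPM in NC and 313, 263 and 297 CPM in RBM47-OE (log2 fold change -0.39, SE 0.07, edgeR adjusted p = 0.000317). In each the RBM47-OE libraries lay below all NC libraries. ZBTB11, a zinc finger transcription factor gene, had 24.9, 22.9 and 23.6 CPM in NC and 28.7, 34.5 and 31.9 CPM in RBM47-OE (log2 fold change 0.41, SE 0.09, edgeR adjusted p = 0.00109), so it was higher in every RBM47-OE library while ZBTB11-AS1 was lower in every one. Of the exonic bases of ZBTB11-AS1, 19.0% lie opposite ZBTB11 exons. With the GC offset neither ZBTB11-AS1 (-0.38, edgeR adjusted p = 0.198) nor ZBTB11 (0.11, edgeR adjusted p = 0.343) was called. Both genes of 5 pairs were called with the offset, all in the same direction, among them MIF, PRMT5 and PXN lower (log2 fold changes of these partners -0.21, -0.35 and -0.20) and WAC higher (0.21).

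Of the 40 called antisense genes, 7 (17.5%) had no exonic base opposite an exon of any gene, against 64 of the 433 tested and annotated members (14.8%). Under 5% of the exonic bases lay there in 16 called genes (40.0%) and in 140 of the 433 (32.3%). The 18 higher genes had a median of 3.96% of their exonic bases opposite exons, the 22 lower genes 23.3% and the genes not called 11.6%. Median exonic lengths were 5817 bases for the higher genes and 2024 for the lower ones. Length, GC content and overlap thus moved together with the direction of change, and their part in it was not tested.

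Lists of other lncRNAs gave these values. Of 111 divergent transcripts (symbols ending in -DT), 1 was higher and 5 lower (5.41%), with a median log2 fold change of -0.07, and with the GC offset 2 were higher and 3 lower (4.5%). Of 192 intergenic lncRNAs with LINC symbols tested, 18 were called (9.38%), 13 of them higher and 5 lower, and the median log2 fold change was 0.03. Of these 192, 6 were higher and 4 lower with the GC offset (5.21%). These shares stand beside 9.01% of lncRNA genes called without the offset. The genes of the nuclear exosome and of its adaptors NEXT and PAXT, which degrade antisense and promoter-upstream RNAs, had a median log2 fold change of 0.01. Of these 19 genes, 5 were higher, namely EXOSC8, the nuclease DIS3, the helicase MTREX, and RBM7 and ZFC3H1 of the adaptors, and 6 were lower, namely EXOSC2, EXOSC4, EXOSC5, EXOSC6, EXOSC7 and ZC3H3. DIS3 had 57.0, 49.0 and 55.3 CPM in NC and 57.0, 76.3 and 75.1 CPM in RBM47-OE (log2 fold change 0.37, SE 0.09, edgeR adjusted p = 0.00296), with RBM47-OE replicate 1 level with NC replicate 1, and EXOSC4, a core subunit, had 69.8, 64.5 and 62.7 CPM in NC and 50.1, 42.6 and 46.2 CPM in RBM47-OE (log2 fold change -0.50, SE 0.08, edgeR adjusted p = 6.49e-05). The share called (57.9%) stands beside 35.9% over all genes tested, but the median of the mean counts was 1071 against 543. Of all genes with 300 to 999 counts 42.4% were called, and of those with at least 1000 counts 58.6%. With the GC offset none of the 19 was higher and 6 were lower (31.6%, against 14.5% of all genes). These were EXOSC2, EXOSC3, EXOSC4, EXOSC6, EXOSC7 and MPHOSPH6. EXOSC3 and MPHOSPH6 were not called without the offset, and EXOSC5 and ZC3H3 lost their calls with it. EXOSC8 had a log2 fold change of -0.11 with the offset (edgeR adjusted p = 0.383).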

How the data were processed

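RNA-seq was analysed in 6 libraries of HCT116 cells, 3 NC and 3 RBM47-OE, grouped by their labelled treatment. After read trimming the authors ran HISAT2 against GRCh38 (at most 4 mismatches) and deposited raw counts of uniquely mapped reads per gene, and they computed the deposited FPKM values from the same alignments. The tool that counted, its strand setting and the annotation release are not given in the sources used here. The deposited totals ran from 26792409 to 35477983 counts per library.

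Differential expression was computed on all genes with edgeR 4.0.16 in R 4.3.3 (filterByExpr with a minimum count of 10 and a minimum total of 15, TMM, quasi-likelihood test, condition as the only term, two-sided), with Benjamini-Hochberg adjustment over the 16260 genes tested. Standard errors were computed as the absolute log2 change over the root of F. CPM values were TMM scaled. Offsets for GC content and length were taken from a loess curve (span 0.3) per library. Positions, GC content and overlaps came from GENCODE 44 on GRCh38, matched by identifier for 437 members, and promoter windows from RefSeq. Correlations across pairs are over genes, which are not independent replicates.

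Same-numbered libraries did not deviate together (correlations -0.06, -0.01 and -0.02), so the numbers were not taken to pair the libraries. Alternatives were DESeq2 1.42.0, RLE factors, library totals, other filters, the replicate block, GC and length offsets, limma 3.58.1 on log2(FPKM + 1) and log2(FPKM + 0.1), stricter thresholds and fits without 1 library each. The fits were tested on simulated counts, where edgeR called 170 of 200 changed genes. That simulation gave every gene the same spread between libraries and did not set RBM47-OE replicate 1 apart, unlike these data. With 3 libraries against 3 an exact permutation test cannot give a p below 0.1, so none was used for single genes.

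Named genes were the 15 largest called changes in each direction, the 5 highest by mean FPKM, 12 with known roles, their partners, and the members at the count minimum. SLC25A5-AS1, MNX1-AS1, AGAP2-AS1, VPS9D1-AS1, RUSC1-AS1, GABPB1-AS1 and the pairs called together were named after their values were seen. The values of 1 called antisense gene are not reported here, and it remains in the counts. The members and lists were chosen with earlier results of these data known.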

Additional observations from a re-analysis of the deposited data

How the results depend on the processing

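With 18 antisense genes higher and 22 lower (99 and 81 partners), the alternatives that moved a count by over 1.5 times were these. The GC offset gave 5 higher and 10 lower (35 and 28 partners), and the GC offset with the replicate block gave 7 and 12 (34 and 27 partners). The length offset gave 11 higher. DESeq2 on all genes gave 12 lower, and limma on log2(FPKM + 1) and on log2(FPKM + 0.1) gave 11 lower each, with 38 and 39 partners lower. Library totals gave 49 partners lower. The thresholds of p under 0.01 with a fold over 1.5 gave 5 and 5 (9 and 1 partners), and an adjusted p under 0.01 gave 6 and 7 (43 partners lower). Leaving out 1 library in turn gave 10 to 27 higher and 8 to 22 lower antisense genes, and 75 to 116 higher and 44 to 101 lower partners, and the fewest antisense calls (20, of them 8 lower) came without RBM47-OE replicate 2. The replicate block alone, which pairs libraries that share only a number, gave 18 and 22, with 39 of the 40 calls kept. OTUD6B-AS1 turned to -0.050 on the log2 scale with the GC offset and to -0.0498 with the GC offset and the block, and TMPO to -0.0785 and -0.0788. The signs of the other named genes called in either fit did not turn, and of 506 values called in neither fit 54 had another sign. Of the 40 calls, 5 held in all 18 fits, MIF-AS1, PXN-AS1, PRMT5-AS1, PPP1R26-AS1 and ZNF503-AS1. RBM47 stayed higher in every fit. The smallest counts limit most members, with a median of 43 counts and a median standard error of 0.27. The cause of these shifts was not tested.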
